A study of Gasterosteus aculeatus with 12 samples.

Results

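*HAS2* (ENSGACG00000005603), *PI16* (ENSGACG00000000511) and *PLOD1* (ENSGACG00000013243) are 3 of the 20860 Ensembl genes whose expression was measured in kidneys of the threespine stickleback, a small fish with freshwater and marine forms. They are grouped here as genes of the extracellular matrix, and they were chosen by identifier with their values in these libraries already known. Their own levels are therefore given as a description, with no test. Kidney RNA of adult wild-caught females was sequenced after 30 days of acclimation, 1 fish per library and 3 fish per treatment. SW33K are saltwater fish from a bay, kept at a salinity of 33 g/L, whereas FW00K, FW11K and FW33K are freshwater fish from a lake, kept at 0, 11 and 33 g/L. All fish shared temperature, day length and food. More mismatches were allowed when SW33K reads were aligned than for FW reads, so between SW33K and FW33K the effect of the alignment cannot be told apart from that of the population.

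The extracellular matrix is the mesh of sugars and proteins that surrounds cells. *HAS2* encodes hyaluronan synthase 2, a membrane enzyme that builds the long sugar chain hyaluronan from UDP-sugars, and in the mammalian kidney hyaluronan is a water-binding part of the matrix between the tubules of the inner medulla. *PLOD1* encodes lysyl hydroxylase 1, which modifies lysines of collagen in the endoplasmic reticulum so that stable cross-links can form later, and in humans its loss gives a form of Ehlers-Danlos syndrome. *PI16* encodes peptidase inhibitor 16, a secreted or membrane-tethered protein of the CAP family, known in mammals from fibroblasts and in the mouse as a brake on heart muscle cell growth.

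Levels are the FPKM deposited by the authors, a count of sequenced fragments divided by transcript length and library size. The table holds no read counts per gene, so no counting error could be given for a value. By the read totals listed for mapping, which were not used here, FW11K replicate 1 and FW33K replicate 1 were sequenced much less deeply than the other libraries. Tests and ranks used 15503 genes, those averaging 1 FPKM or more over the 12 libraries. Their median FPKM was 5.43 to 11.0 in SW33K, 14.4 to 16.7 in FW00K, 10.3 to 11.8 in FW11K and 4.39 to 6.75 in FW33K, and the median difference of all these genes between FW33K and FW00K was -1.20 on the log2(FPKM + 1) scale. A difference near 0 therefore lay above that of most genes. For this reason levels are also given after median-ratio scaling, in which every library is divided by a size factor, the median over genes of its level relative to the gene's geometric mean. Replicates 2 and 3 of each treatment lay closer together (Pearson's r across genes 0.990 to 0.992) than either did to replicate 1 (0.846 to 0.945). Whether replicates 2 and 3 share material was not tested, since FPKM give no counts to set against sampling noise. SW33K replicate 1 had an r of 0.933 and 0.940 with its group, above those of FW00K and FW11K replicate 1 (0.846 to 0.873). In 5228 genes, FW33K and the other SW33K libraries were more than 1 apart on the log2 scale. SW33K replicate 1 lay nearer to FW33K in 4100 of these. This count used the deposited values, in which the median FPKM of SW33K replicate 1, 5.43, was within the FW33K range. The count after scaling was not computed.

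*HAS2* was close to silent in fresh water and among the most abundant genes in FW33K. Its level was 0.280, 0.898 and 0.724 FPKM in FW00K replicates 1 to 3, 1.55, 2.90 and 2.27 FPKM in FW11K, and 273, 646 and 602 FPKM in FW33K. No library of one salinity overlapped with another, and the FW33K fish stood far above both other salinities. The means were 0.634 ± 0.319 FPKM in FW00K, 2.24 ± 0.678 FPKM in FW11K and 507 ± 204 FPKM in FW33K (SD, n = 3 each). FW33K was thus 226 times the mean of FW11K, while FW11K was 3.53 times that of FW00K, so nearly all of the difference lay between 11 and 33 g/L. Ranked by FPKM among the 20860 genes of its library, *HAS2* stood at places 143 to 180 in FW33K and at places 15807 to 17749 in FW00K.

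On the log2(FPKM + 1) scale, *HAS2* differed by 8.20 (standard error 0.50) between FW33K and FW00K, which was rank 1 of the 15503 genes from the top. It differed by 7.22 between FW33K and FW11K (rank 6) and by 0.99 between FW11K and FW00K (rank 584; standard error 0.50 for both). These ranks describe how the gene was chosen rather than a finding. *HAS2* and *PI16* also passed the minimum mean of 1 FPKM with FW33K far above the other groups. The FW33K and FW00K libraries did not overlap in 83.5% of all tested genes (3.92% with FW33K higher, as for *HAS2* and *PI16*, and 79.6% with FW33K lower). For FW33K and FW11K this was so in 66.6% (3.55% higher, as again for both genes, and 63% lower). For FW11K and FW00K it was so in 44.7% (6.97% higher, as for *HAS2*, and 37.7% lower, as for *PI16*).

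Saltwater fish at the same salinity did not have the *HAS2* level of FW33K. Its level in SW33K was 9.08 FPKM in replicate 1, with 1.4 and 1.53 FPKM in the other fish, against 273 to 646 FPKM in FW33K. Every SW33K library lay below every FW33K library, as in 4.66% of all tested genes, and SW33K replicate 1 was 6.19 times the mean of the other SW33K fish. The SW33K mean was 4.0 ± 4.40 FPKM, with an SD above the mean itself. The log2 difference between SW33K and FW33K was -6.91 (standard error 0.50), the lowest of all 15503 genes, and -7.59 without SW33K replicate 1. In order of the means, *HAS2* was lowest in FW00K, then in FW11K, SW33K and FW33K, and the SW33K and FW11K libraries overlapped.

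*PI16* shared the high level in FW33K, with little spread among the fish in the deposited values. It was at 3.21, 4.59 and 3.47 FPKM in FW00K replicates 1 to 3, at 0.357, 2.91 and 2.12 FPKM in FW11K and at 203, 181 and 194 FPKM in FW33K. FW11K lay below FW00K in all libraries, and its replicate 1 was the lowest of all 12. In scaled FPKM, FW11K (0.329, 2.36 and 1.75) and FW00K (1.90, 3.004 and 2.31) overlapped. FW33K was then at 435, 259 and 301, a wider spread (scaled mean 332, SD 91.6). The means were 3.76 ± 0.733 FPKM in FW00K, 1.80 ± 1.31 FPKM in FW11K and 192 ± 11.4 FPKM in FW33K (SD, n = 3 each). The ratio of the FW33K to the FW00K mean was 51.2, and that of the FW33K to the FW11K mean was 107.

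For *PI16* the SW33K fish were split. Its level was 87.5 FPKM in SW33K replicate 1, with 1.42 and 2.12 FPKM in the other SW33K fish, against 181 to 203 FPKM in FW33K. Replicate 1 was thus at 0.455 of the FW33K mean, and the other fish were at the level of FW11K. The SW33K mean of 30.4 ± 49.5 FPKM describes none of the 3 fish. On the log2(FPKM + 1) scale, *PI16* differed by 5.35 between FW33K and FW00K (rank 11 from the top), by -0.89 between FW11K and FW00K and by -4.47 between SW33K and FW33K (standard error 0.99 for each). Without FW11K replicate 1 the second of these was -0.43, and without SW33K replicate 1 the last was -6.14. The standard error of 0.99 came from all 12 libraries, with the split SW33K fish among them. With only the libraries compared it was 0.174, 0.422 and 1.22 for the 3 differences in turn. Only FW33K stood clear of the other treatments, as the SW33K libraries overlapped with those of FW00K and FW11K. The study called both *HAS2* and *PI16* different between FW00K and FW33K and between FW11K and FW33K. It called neither gene different between FW33K and SW33K.

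**Figure D1:**
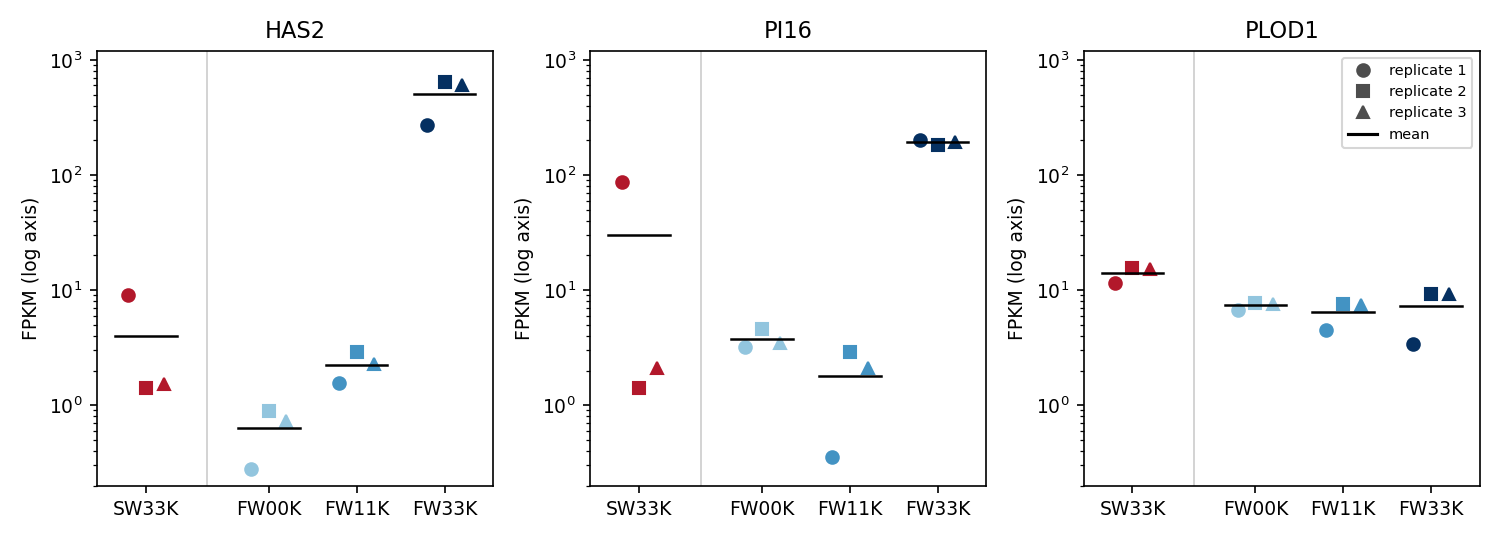
FPKM of *HAS2*, *PI16* and *PLOD1* on a log axis in the 3 libraries of SW33K (left of the line) and of FW00K, FW11K and FW33K. Symbols mark the replicate and bars the mean of 3; *HAS2* reaches 273 to 646 FPKM and *PI16* 181 to 203 FPKM in FW33K, while SW33K replicate 1 is high for *PI16* (87.5 FPKM) and the *PLOD1* means stay between 6.48 and 14.0 FPKM.

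*HAS2* and *PI16* were both highest in FW33K but did not keep a fixed ratio. Pearson's r of their log2(FPKM + 1) was 0.912 over the 12 libraries (0.935 after scaling), which rests largely on the FW33K fish, and libraries of a treatment share their conditions. The ratio of *HAS2* to *PI16* within a library, which no scaling between libraries can alter, was 1.34 to 3.58 in FW33K and 0.0871 to 0.209 in FW00K, with 0.999 to 4.33 in FW11K. SW33K replicate 1 did not keep the FW33K ratio: it was at 0.104, with 0.988 and 0.722 in the other SW33K fish. *PLOD1* had an r of -0.178 with *HAS2* and of -0.123 with *PI16* in the deposited values. After scaling these r were 0.494 and 0.572.

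**Figure D2:**
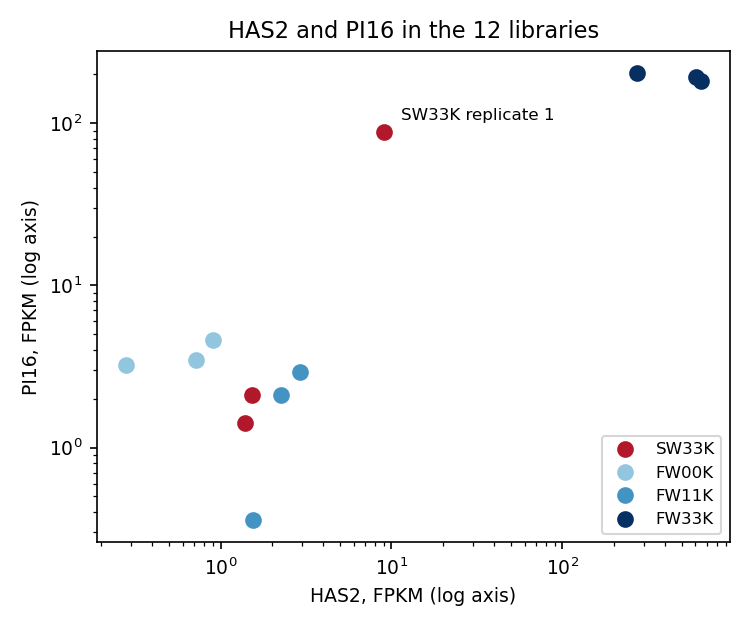
FPKM of *PI16* against FPKM of *HAS2*, both on log axes, with 1 point for each of the 12 libraries. The 3 FW33K fish lie apart at the top right, and SW33K replicate 1 has a *PI16* level of 87.5 FPKM at a *HAS2* level of only 9.08 FPKM.

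*PLOD1* had similar mean levels at the 3 salinities in the deposited values of the freshwater fish. It was at 6.78, 7.66 and 7.64 FPKM in FW00K replicates 1 to 3, at 4.54, 7.53 and 7.38 FPKM in FW11K and at 3.37, 9.17 and 9.17 FPKM in FW33K. The 3 salinities overlapped, and replicate 1 was the lowest fish of each treatment. The means were 7.36 ± 0.505 FPKM in FW00K, 6.48 ± 1.69 FPKM in FW11K and 7.24 ± 3.35 FPKM in FW33K (SD, n = 3 each). On the log2(FPKM + 1) scale the differences were -0.12 between FW33K and FW00K and -0.19 between FW11K and FW00K (standard error 0.33 for both), within the spread between fish, and without FW33K replicate 1 the first of these was 0.28.

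SW33K had the highest *PLOD1* level of the 4 treatments, at 11.6, 15.4 and 15.1 FPKM in replicates 1 to 3, against 3.37, 9.17 and 9.17 FPKM in FW33K. The SW33K libraries did not overlap with any freshwater library. Their mean was 14.0 ± 2.15 FPKM and the log2 difference between SW33K and FW33K was 0.96 (standard error 0.33), where the median of all tested genes was 0.47. Without FW33K replicate 1, the lowest fish, the difference was 0.55. Non-overlap of SW33K and FW33K was common, with 31.3% of all tested genes and 26.7% higher in SW33K. For SW33K against FW00K or FW11K this share was not computed.

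The place of FW33K in the *PLOD1* order depended on the scaling. After median-ratio scaling, *PLOD1* was at 4.01, 5.01 and 5.10 scaled FPKM in FW00K, at 4.18, 6.12 and 6.09 in FW11K and at 7.20, 13.2 and 14.3 in FW33K. All FW33K fish then lay above all fish at the lower salinities, and the log2 difference between FW33K and FW00K was 1.09. The share of all genes without overlap after scaling was not computed. SW33K was at 20.4, 13.2 and 13.3 scaled FPKM, overlapping with FW33K, and the difference between SW33K and FW33K was 0.43. The scaled ratio of means was 2.45 for FW33K over FW00K and 1.35 for SW33K over FW33K, against 0.983 and 1.94 as deposited. For *HAS2* and *PI16* the scaling widened the same differences, to 9.16 and 6.59 between FW33K and FW00K and to -7.49 and -5.03 between SW33K and FW33K.

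*PLOD2* encodes lysyl hydroxylase 2, the relative of *PLOD1* that modifies the ends of collagen chains. It was tested, but it could be found only because the study had called it in these libraries. It was at 1.79, 1.36 and 1.87 FPKM in FW33K replicates 1 to 3, against 13.7, 14.3 and 14.6 FPKM in FW00K, with 8.38, 6.87 and 6.44 FPKM in FW11K. FW33K lay below FW00K in every fish and fell by 2.52 on the log2 scale (standard error 0.45, limma adjusted p = 0.000579, by the method of Benjamini and Hochberg over all tested genes). The median of all genes in this comparison was -1.20 and 49.6% of them were called lower. Without overlap, FW33K lay below FW00K in 79.6% of all tested genes. After median-ratio scaling the difference of *PLOD2* was -1.40, and after quantile normalization it was -1.23. The fall kept its direction under all 20 alternatives and was not called with quantile normalization and with replicates 2 and 3 averaged as 1 sample (limma adjusted p up to 0.0135). In SW33K, *PLOD2* was at 4.52, 22.6 and 23.8 FPKM, again with replicate 1 nearest to FW33K. The SW33K fish were above FW33K by 2.47 on the log2 scale (standard error 0.45, limma adjusted p = 0.00837), a call that was lost under 14 of the 20 alternatives (limma adjusted p from 1.09e-05 to 0.284). Leaving out any 1 library ended it, except FW11K replicate 1 and SW33K replicate 1, and without the last of these the difference was 3.18. The study lists *PLOD2* among genes it found to respond to salinity in these same libraries, so these tests are not independent evidence. Its call was for FW00K against FW33K, and it made none for FW33K against SW33K.

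The mRNA levels of *PLOD1* and *PLOD2* were also compared within each library, without *PLOD3*, which was not matched. *PLOD1* over *PLOD2* was 0.495, 0.534 and 0.523 in FW00K, 0.542, 1.10 and 1.15 in FW11K and 1.89, 6.73 and 4.92 in FW33K. FW33K lay above both other salinities in every fish. In SW33K the ratio was 2.56 in replicate 1 and 0.682 and 0.636 in replicates 2 and 3. Replicate 1 was thus within the range of FW33K, and the others were within that of FW11K and above every FW00K library.

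**Figure D3:**
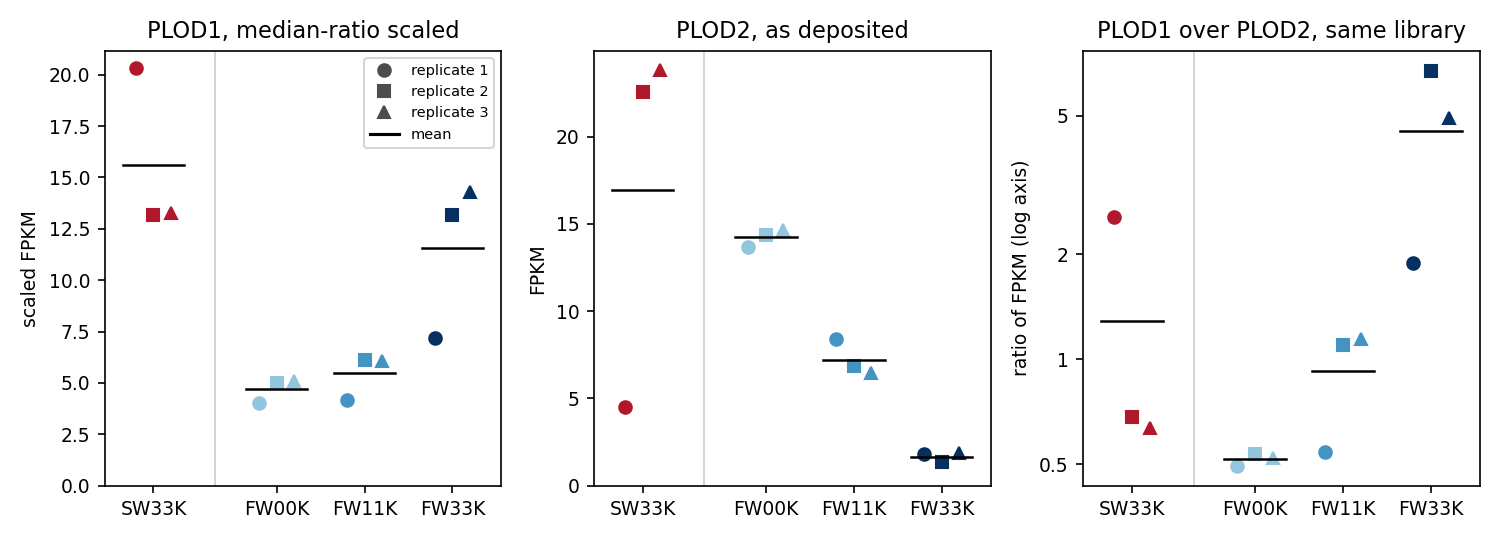
*PLOD1* in median-ratio scaled FPKM, *PLOD2* in FPKM as deposited, and the ratio of their FPKM within each library on a log axis. Symbols mark the replicate and bars the mean of 3, with SW33K left of the line; *PLOD1* over *PLOD2* is 1.89 to 6.73 in FW33K and 0.495 to 0.534 in FW00K, and SW33K replicate 1 lies at 2.56.

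The genes around these steps of matrix synthesis were taken from 5 lists of hyaluronan, collagen maturation, collagen, CAP family and matrix protease genes. Of their 125 symbols, 17 were matched to 18 identifiers and 17 of these genes were tested. Every match came from the study's own list of genes responding to salinity in these libraries, so the counts are not independent evidence. No symbol of the CAP family, to which *PI16* belongs, or of the matrix proteases was matched, and these were not analysed here, nor were the relatives of *HAS2* and *PLOD3*. Between FW33K and FW00K, 6 of the 17 genes passed limma at an adjusted p under 0.01, 5 higher and 1 lower in FW33K, where 51.3% of all tested genes passed (1.71% higher and 49.6% lower). The median log2 difference of the 17 genes was 0.84, against -1.20 for all genes. After scaling, 15 of the 17 passed, 14 of them higher, and so did 19% of all genes (11.6% higher and 7.4% lower).

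On the hyaluronan side, 2 of 7 genes passed between FW33K and FW00K, both higher. *HYAL2 (2 of 2)*, a copy of the gene for a hyaluronidase that cuts hyaluronan, was at 36.5, 63.2 and 59.9 FPKM in FW33K, against 12.2, 10.4 and 9.69 FPKM in FW00K. It rose by 2.17 on the log2 scale (standard error 0.29, limma adjusted p = 0.000132). *GFPT2*, whose enzyme opens the hexosamine route to UDP-*N*-acetylglucosamine, a substrate of *HAS2*, rose by 1.88 (standard error 0.41, limma adjusted p = 0.00177). It was at 129, 197 and 189 FPKM in FW33K, against 30.2, 55.7 and 54.7 FPKM in FW00K. The other 5 genes had log2 differences of 0.22 (*UGDH*, which makes UDP-glucuronic acid) to 1.14 (*GFPT1*, the relative of *GFPT2*), with limma adjusted p of 0.495 and 0.0132. *CD44*, a hyaluronan receptor of the cell surface, was at 37.7 to 58.5 FPKM in FW33K and 36.7 to 50.1 FPKM in FW00K, with overlap. After scaling all 7 genes passed, each higher in FW33K. *CD44* was then at 80.7 to 88.0 scaled FPKM in FW33K, against 24.0 to 29.6 in FW00K, a log2 difference of 1.66 (limma adjusted p = 0.00199), and that of *UGDH* was 1.60 (limma adjusted p = 0.000165).

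The *HAS2* mRNA level was also set against that of *HYAL2 (2 of 2)* in the same fish. The ratio of *HAS2* to *HYAL2 (2 of 2)* within a library was 7.47, 10.2 and 10.04 in FW33K, against 0.0229, 0.0866 and 0.0747 in FW00K, with 0.0931, 0.304 and 0.231 in FW11K. In SW33K it was 0.201, 0.0362 and 0.0443. *HYAL2 (2 of 2)* itself was at 45.1, 38.6 and 34.6 FPKM in SW33K, within or near the FW33K range, and its log2 difference between SW33K and FW33K was -0.39 (standard error 0.29, limma adjusted p = 0.364). None of the 7 hyaluronan genes passed between SW33K and FW33K (limma, 0 also at an unadjusted p under 0.05), where 1.43% of all tested genes did (1.04% higher and 0.387% lower). After scaling, again none of the 7 passed, with 4.27% of all genes (1.53% higher and 2.74% lower). Scaled values without SW33K replicate 1 were a setting chosen after seeing the data. There *HYAL2 (2 of 2)* had a log2 difference of -1.43 between SW33K and FW33K (limma adjusted p = 0.00543) and *CD44* one of -1.54 (limma adjusted p = 0.000252). The share of all genes passing in this setting was not computed.

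On the collagen side, 4 of the 7 maturation genes passed between FW33K and FW00K, 3 of them higher and *PLOD2* lower. *PPIB*, cyclophilin B, a folding enzyme of the prolyl hydroxylation complex, was at 1230, 2356 and 2236 FPKM in FW33K, against 243, 417 and 414 FPKM in FW00K. It rose by 2.42 on the log2 scale (standard error 0.41, limma adjusted p = 0.000442). *P4HB*, protein disulfide isomerase and a subunit of collagen prolyl 4-hydroxylase, was at 477 to 618 FPKM in FW33K and 115 to 141 FPKM in FW00K, and rose by 2.17 (standard error 0.47, limma adjusted p = 0.00176). The third was *FKBP14 (2 of 2)*, named after its values were seen, a folding enzyme of the endoplasmic reticulum, with a rise of 1.56 (standard error 0.35, limma adjusted p = 0.00230), a call lost without FW00K replicate 1, without FW33K replicate 2 or 3 and with only the libraries compared (limma adjusted p up to 0.0469 over all alternatives). *PPIB* and *P4HB* also serve proteins other than collagen. With replicates 2 and 3 averaged as 1 sample, no gene of the lists passed in any comparison (limma, 6 at an unadjusted p under 0.05 between FW33K and FW00K).

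Between FW33K and FW11K, 5 of the 17 genes passed, all higher in FW33K (*HYAL2 (2 of 2)*, *TMEM2*, *GFPT2*, *PPIB* and *P4HB*), where 25.1% of all genes passed (1.79% higher and 23.4% lower). After scaling, 10 of the 17 passed, with 14.4% of all genes (8.67% higher and 5.72% lower). *TMEM2*, whose protein is a hyaluronidase of the cell surface in mammals, was at 24.4, 32.0 and 30.4 FPKM in FW33K, against 18.6, 8.0 and 7.89 FPKM in FW11K. In FW11K, replicate 1 was the highest of the 3 for *HYAL2 (2 of 2)*, *TMEM2*, *GFPT2*, *PPIB* and *P4HB*. The count dropped to 2 when FW11K replicate 2 or 3 or FW33K replicate 2 or 3 was left out, and it was 8 when SW33K replicate 1 was, as all libraries share 1 estimate of the spread. Of these 8, 5 were higher and 3 lower in FW33K (*PLOD2*, *COL1A1 (1 of 2)* and *COL1A2*). The calls of *HYAL2 (2 of 2)* and *PPIB* stood without any 1 library, whereas those of *TMEM2*, *GFPT2* and *P4HB* did not.

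Between FW11K and FW00K none of the 17 genes passed (limma, 3 at an unadjusted p under 0.05), where 4.46% of all tested genes did (0.284% higher and 4.17% lower). The 3 genes were those of collagen I, the main fibrous collagen, named here after their values were seen. *COL1A1 (1 of 2)* was at 24.9, 31.0 and 31.4 FPKM in FW11K, against 10.6, 7.12 and 7.27 FPKM in FW00K, a log2 difference of 1.70 (standard error 0.37, limma adjusted p = 0.0111). *COL1A1 (2 of 2)* and *COL1A2* differed by 1.57 and 1.31 (limma adjusted p = 0.0329 and 0.0581). All FW11K fish lay above all FW00K fish in these genes, as in 6.97% of all tested genes. The study, with other tests on read counts, did call both *COL1A1* copies between FW00K and FW11K. It also called both between FW00K and FW33K, where neither passed here on the deposited values. The 3 genes and *UAP1* passed after scaling, which made 4 calls, with 8.08% of all genes called (4.24% higher and 3.83% lower). Without SW33K replicate 1 the count was also 4, the collagen I genes, higher, and *PLOD2*, lower in FW11K, and without FW11K replicate 1 it was 1. The level of *COL1A1 (1 of 2)* was 11.3 to 18.1 FPKM in FW33K, so that its highest deposited level was in FW11K, unlike *HAS2* and *PI16*. In scaled FPKM it was 24.1 to 27.0 in FW33K, against 22.96 to 25.9 in FW11K, and this order no longer held.

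**Figure D4:**
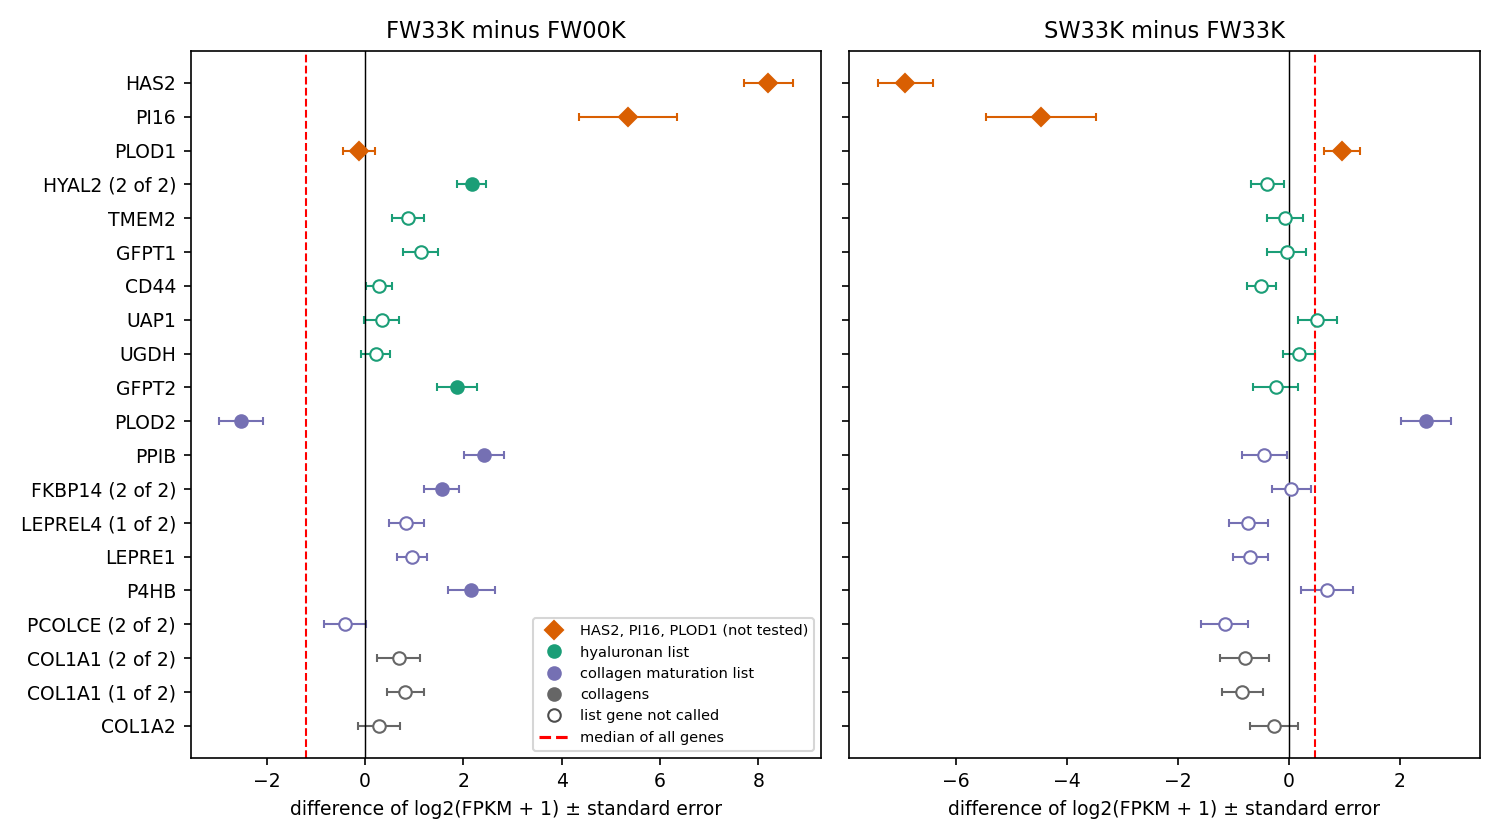
Differences of log2(FPKM + 1) between FW33K and FW00K (left) and between SW33K and FW33K (right), with bars of 1 standard error. Diamonds are *HAS2*, *PI16* and *PLOD1*, which were not tested, filled circles are list genes with a limma adjusted p under 0.01 and open circles are not; the dashed line is the median of all tested genes (-1.20 and 0.47), and *HAS2* lies at 8.20 and -6.91.

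By Pearson's r of log2(FPKM + 1) over the 12 libraries, the gene most like *HAS2* was *ZBTB16 (2 of 2)*, a zinc finger transcription factor (r = 0.985), at 3.48 ± 0.297 FPKM in FW33K and 0.178 ± 0.0335 FPKM in FW00K. *RASD1 (2 of 2)*, a small GTPase, and *SLC5A8*, a sodium-coupled transporter of short carboxylates, followed among genes with a known symbol (r = 0.978 and 0.974). *SLC5A8* was at 32.3 ± 11.2 FPKM in FW33K and 0.281 ± 0.154 FPKM in FW00K (SD, n = 3 each). *RASD1 (2 of 2)* was listed at 0 in all SW33K libraries and was at 10.6 ± 3.42 FPKM in FW33K. The remaining 2 of the 5 genes had no known symbol.

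The 5 genes most like *PI16* were *SLC25A48*, a mitochondrial carrier (r = 0.979), *CTSE*, the aspartic protease cathepsin E (0.976), *TTC9* (0.957), *BEST3*, of the bestrophin anion channels (0.943), and *EMB*, the membrane glycoprotein embigin (0.942). They shared the split of the saltwater fish: *SLC25A48* was at 42.2 FPKM and *BEST3* at 77.3 FPKM in SW33K replicate 1, with SW33K means of 18.4 ± 20.6 and 31.3 ± 39.9 FPKM. The r that picked these genes included the SW33K libraries, so this likeness follows in part from the choice and is not a separate finding. *CTSE* was also the seventh gene for *HAS2* (r = 0.960). Of the 5 genes most like *PLOD1*, only *RIOK3*, a protein kinase, had a known symbol (r = 0.966). These r describe 12 libraries, and for *HAS2* and *PI16* they rest mainly on the 3 FW33K fish.

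The markers of cell types that could be matched moved with the treatments as well, except the ovary marker *DDX4*, which passed limma in no comparison. They too were known only from the study's own list of genes responding to salinity in these libraries, so their movement is not independent evidence. In bulk tissue, fewer cells of a type and less RNA per cell cannot be told apart. Of 15 symbols for the kidney tubule, 3 were matched (the ion transporters *SLC12A1*, *SLC12A3* and *SLC34A1*), and all were detected in every library. Their summed level was 32.8 to 59.7 FPKM in FW33K, against 392 to 393 FPKM in FW00K, with 79.2 to 180.4 FPKM in FW11K. In SW33K it was 63.1 FPKM in the lowest fish and 262 FPKM in the highest. After scaling the sums were 70.1 to 89.2 in FW33K, against 232 to 262 in FW00K. The genes in the sum differed between FW11K and FW33K. The mean of *SLC12A1* was 11.3 FPKM in FW11K and 16.7 FPKM in FW33K. That of *SLC12A3* was 115 and 28.9 FPKM, and that of *SLC34A1* was 19.2 and 4.36 FPKM. The only matched marker of fibroblasts, 1 of 12, was *POSTN (2 of 2)*, a matrix protein, at 5.59, 11.7 and 10.6 FPKM in FW33K, against 1.04, 2.31 and 1.98 FPKM in FW00K, with 1.29 to 2.47 FPKM in SW33K.

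For blood cells, 2 of 14 markers (*CORO1A* and *SPI1 (2 of 2)*) summed to 59.7 to 78.3 FPKM in FW33K, against 424 to 463 FPKM in FW00K, and to 45.1 to 77.1 FPKM in SW33K. After scaling these sums were 112 to 128 in FW33K, against 251 to 309 in FW00K. *CPA1*, the 1 of 5 markers of exocrine pancreas, was at 23.7 to 60.3 FPKM in FW33K and 279 to 371 FPKM in FW00K (50.8 to 86.5 and 182 to 219 after scaling), with 8.31 to 18.6 FPKM in SW33K. *DDX4*, the 1 of 8 ovary markers, was at 0 to 0.0579 FPKM in FW33K and at most 0.0218 FPKM in SW33K, with 2.28 to 4.02 FPKM in FW11K. It was at 43.0 FPKM in FW00K replicate 1, with only 0.0624 and 0.0184 FPKM in FW00K replicates 2 and 3. The 3 matched genes of 2 muscle markers, out of 5, summed to 0.548 to 1.03 FPKM in FW33K, against 31.6 to 294 FPKM in FW00K. *STAR*, the 1 of 7 interrenal markers, was at 0 to 0.826 FPKM in FW33K and 0.422 to 0.629 FPKM in FW00K, with 2.29 to 3.95 FPKM in FW11K. No marker of liver or of the corpuscle of Stannius was matched. The part of these cell types in the levels of *HAS2*, *PI16* and *PLOD1* was not tested.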

How the data were processed

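Kidney RNA of 12 fish was sequenced, 3 per treatment, and groups were taken from the sample titles. According to the methods of the study, reads were trimmed to 75 bases after those with base qualities below 20 had been discarded. TopHat2 2.0.3 placed them on the BROADS1 assembly, in which polymorphic positions were masked, with up to 2 mismatches for freshwater and 3 for saltwater fish. The authors deposited FPKM, which by their methods Cufflinks 2.0.2 estimated. The study's printed means of *HAS2*, *PI16* and *PLOD2* in freshwater fish lay below those of the deposited values, in proportion most in FW00K. The reason was not tested. Tests used limma 3.58.1 (lmFit, eBayes with trend) in R 4.3.3 on log2(FPKM + 1) for 15503 genes averaging 1 FPKM or more. All 12 libraries were in one fit, with a Benjamini-Hochberg adjusted p under 0.01 over all of those genes. The fit was tried on simulated data with independent libraries. These held neither the closeness of replicates 2 and 3 nor a shift of most genes, so the trial does not cover either. Differences on this scale understate changes of low genes. Other values and plots came from Python 3.11.15 (pandas 2.3.3, numpy 2.4.6, matplotlib 3.10.9). Members and lists were chosen with earlier results of these data known. Named genes were the members, their relatives, for each list the 2 largest rises and 2 largest falls in FW33K against FW00K and the largest of each in SW33K against FW33K among called genes without overlap, and the 5 genes with the highest Pearson's r with each member; other list genes were named after their values were seen. Symbols were known for the 1379 genes of the study's tables, besides *PLOD1*. The alternatives were another pseudocount, no filter, 2 scalings, fewer libraries, a replicate block, averaged replicates, another threshold and leaving out each library. Part of the kidney markers is not reported here.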

Additional observations from a re-analysis of the deposited data

How the results depend on the processing

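Apart from leaving out 1 library, 47 alternative values of the main results stayed close, 7 counts were lower, 13 counts were higher, and 7 differences moved by more than the spread between fish. No call of a named gene changed direction, but the *PLOD1* difference between FW33K and FW00K changed sign under both scalings. The log2 difference of *HAS2* between FW33K and FW00K, 8.20, was 9.45 with a pseudocount of 0.1, 9.16 after median-ratio scaling and 8.92 after quantile normalization. For *PLOD1* it was 1.09 and 1.24 under these scalings, against -0.12, and between SW33K and FW33K it was 0.43 and 0.42, against 0.96. The following are limma counts among the 17 matrix genes. The share of all genes passing was computed only for the main fit and median-ratio scaling. In the other settings, here and above, a change of count cannot be set against that of all genes. For FW11K against FW00K (0 genes) the count was 1 with no filter, 4 under either scaling, 1 with only the libraries compared and 2 at an adjusted p under 0.05. For FW33K against FW00K (6) it was 15 under either scaling. For FW33K against FW11K (5) it was 10 and 8 under the scalings, 3 with only the libraries compared and 8 at an adjusted p under 0.05. For SW33K against FW33K (1, higher) it was 4 under either scaling, 1 of them higher and 3 lower in SW33K (*PCOLCE (2 of 2)* and both *COL1A1* copies), 0 with no filter and 0 with only the libraries compared. With replicates 2 and 3 averaged the counts were 0 in the 3 comparisons that had any (6, 5 and 2 genes at an unadjusted p under 0.05). Leaving out 1 library gave counts of 0 to 4, 5 to 9, 2 to 8 and 0 to 2 in these 4 comparisons, the highest of each without SW33K replicate 1. It gave log2 differences between SW33K and FW33K of -7.59 to -6.55 for *HAS2*, -6.14 to -3.54 for *PI16* and 0.55 to 1.16 for *PLOD1*. Between FW33K and FW00K these ran from 7.98 to 8.60, 5.27 to 5.48 and -0.32 to 0.28. Median-ratio scaling without SW33K replicate 1, chosen after seeing the data, gave counts of 4, 16, 13 and 8 (1 of the last higher in SW33K), and differences between SW33K and FW33K of -8.46 for *HAS2*, -7.01 for *PI16* and 0.23 for *PLOD1*. The replicate block gave 1 call for FW11K against FW00K and 0 for SW33K against FW33K. Replicate numbers were not taken to pair the fish in the main fit. For this check, each gene's treatment mean was first subtracted from its log2(FPKM + 1). The remaining deviations of same-numbered libraries of different treatments correlated at over 0.1 in 13 of 18 pairs (-0.05 to 0.42). On average, the deviations of each of the 12 libraries correlated best with those of its own number in the other treatments. By the methods of the study, 4 libraries shared each sequencing lane, but which ones is not stated. Whether the replicate numbers follow the lanes was not tested. Without read counts per gene, how far depth limits the low *HAS2* and *PI16* levels was not tested. The causes of these shifts were not tested.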
